A study of Homo sapiens with 48 samples.

Results

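Integrins and laminins were followed as a set of 35 genes, 17 integrin alpha chains, 8 integrin beta chains and 10 laminin chains, among the 58870 genes counted in each library. The members were taken by symbol from the unstranded gene counts, and each of the 35 symbols matched 1 identifier. Integrins are cell surface receptors made of an alpha and a beta chain. The alpha chain largely sets the ligand outside the cell, and the beta chain connects through adaptor proteins to the actin cytoskeleton. Laminins are cross-shaped matrix proteins assembled from an alpha, a beta and a gamma chain; they form the sheets of basement membranes and are themselves ligands of several integrins. In melanocytic cells these genes are known for their part in anchorage, migration and tumour spread.

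RNA was sequenced from 3 human uveal melanoma cell lines labelled wild type, 92-1, MEL202 and MP41, in 48 libraries that form 16 groups of 3. In every line, cells were given FHT-1015, which inhibits SMARCA4 and SMARCA2, the alternative ATPases of BAF chromatin remodelling complexes, or the solvent DMSO, for 4 h or 24 h. Cells of 92-1 were also given IDE196, a protein kinase C inhibitor, for 4 h or 24 h beside a further set of DMSO libraries of their own. Each experiment (a line, a drug, its DMSO and the 4 h and 24 h time points) therefore held 12 libraries, and doses are not given in the sources used here. The titles call the replicates biological, but nothing says that they came from separate cultures, so p-values measure the spread between these libraries. Each library held between 11394088 and 32317711 reads in genes. The second FHT-1015 replicate of MEL202 at 4 h stood apart, with a read in 17592 genes, beside 20023 to 27150 in the other 47 libraries. Replicates spread least in 92-1, with a biological coefficient of variation of 0.117 (FHT-1015) and 0.112 (IDE196), then in MP41 (0.217), and most in MEL202 (0.294), so smaller changes could be called in 92-1 than in MEL202.

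Markers of the melanocyte lineage fitted the labels: all 7 (PMEL, MLANA, TYR, TYRP1, DCT, SOX10 and MITF) had a median above 1 CPM in 92-1 and MP41, and 6 did in MEL202, where DCT did not. CPM are read counts scaled to library size, here with TMM factors within an experiment. Markers of 6 leukocyte genes summed to at most 6.17 CPM in any library, 3 endothelial markers to at most 1.81 and 2 platelet markers to at most 0.0564. Markers of fibroblasts (COL1A1, DCN, LUM, PDGFRB) reached 43.0 CPM in MP41, and 4 epithelial markers reached 14.5 CPM in the IDE196 experiment. The fibroblast sum also moved with FHT-1015 in 92-1 at 24 h, from between 3.17 and 3.82 CPM in DMSO to between 10.2 and 11.9 CPM. With IDE196 at 24 h it went from between 6.37 and 9.23 CPM to between 10.7 and 16.05, within the 8.77 to 23.8 CPM of the 4 h DMSO libraries of that experiment. None of the 4 genes was at 0 reads in a group, and the part of this move in the integrin and laminin results was not tested. In bulk RNA, fewer cells with a transcript and less transcript per cell cannot be told apart. All 7 melanocyte genes fell with FHT-1015 at 24 h in each line. SOX10, a lineage transcription factor, fell by 4.69 on the log2 scale in 92-1 (adjusted p = 3.1e-12), and its log2 fold change was -5.43 in MEL202 (9.2e-08) and -4.74 in MP41 (7.1e-08, edgeR quasi-likelihood F-test). Transcripts of the drug's targets were called higher in 92-1, SMARCA4 at 4 h (0.35 ± 0.09, adjusted p = 0.0066) and 24 h (0.25 ± 0.09, 0.019) and SMARCA2 at 24 h (0.73 ± 0.10, 2.0e-05), and neither was called in MEL202 or MP41.

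ITGA1 and ITGAV had the largest 24 h folds of the 3 members called higher with FHT-1015 in all lines, and the sequences around their start sites are given here for that reason; the other, ITGA3, had no entry in the promoter table. Of the 35 members, 25 had an entry in the promoter table used (RefSeq, GRCh38.p14, 250 bases before to 50 bases after the start). The ITGAV sequence lies at chr2:186589806-186590105 and the ITGA1 sequence at chr5:52787666-52787965, both on the plus strand, and capitals mark CG dinucleotides.
ITGAV: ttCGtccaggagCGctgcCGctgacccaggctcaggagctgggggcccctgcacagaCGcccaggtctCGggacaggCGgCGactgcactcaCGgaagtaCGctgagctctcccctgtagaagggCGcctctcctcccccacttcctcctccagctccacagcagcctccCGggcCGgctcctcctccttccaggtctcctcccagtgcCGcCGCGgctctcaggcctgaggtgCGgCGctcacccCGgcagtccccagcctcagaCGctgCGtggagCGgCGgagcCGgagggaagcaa
ITGA1: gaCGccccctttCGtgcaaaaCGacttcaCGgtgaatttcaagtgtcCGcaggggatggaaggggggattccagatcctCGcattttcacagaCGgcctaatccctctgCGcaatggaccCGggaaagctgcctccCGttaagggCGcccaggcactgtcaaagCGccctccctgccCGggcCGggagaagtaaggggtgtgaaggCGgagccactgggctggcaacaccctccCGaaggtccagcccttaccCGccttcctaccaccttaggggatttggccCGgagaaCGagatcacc
The ITGAV window was 70.7% G or C with 23 CG dinucleotides and the ITGA1 window 61.7% with 19, beside medians of 58.7% and 14 over 35116 promoters of 300 bases. Neither window, on either strand, held TGANTCA (the AP-1 motif, found in 7.71% of all promoters), CACGTG or CATGTG (E-boxes bound by MITF among other factors, 7.26% and 11.1%), or ACAAAG or ACAATG (SOX-type motifs, 16.1% and 10.8%). ACAAAG and ACAATG differ in 1 letter, as do CACGTG and CATGTG. An absent match says only that these letters are not in the window.

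In DMSO, before any drug, the 3 lines shared an outline. To compare genes with each other, levels were divided by the length of their exons and are given as the median CPM per kb over the 6 DMSO libraries of an experiment; for 92-1 they are those of the FHT-1015 experiment unless the IDE196 set is named. ITGB1, the beta chain that partners most alpha chains, stood highest of the integrins in every experiment, at 106 CPM per kb in 92-1 (75.4 to 114), 132 in MEL202 (86.0 to 162) and 51.8 in MP41 (19.4 to 55.4). LAMC1, the gamma chain of most laminins, stood highest of the laminins, at 31.8 in 92-1, 50.8 in MEL202 and 134 in MP41 (109 to 178), and in MP41 all its 6 values lay above all those of ITGB1. Among alpha chains of integrins, ITGAV, which forms the receptors for vitronectin and other RGD ligands, led with 15.7 in 92-1, 29.02 in MEL202 and 23.5 in MP41. LAMA1 was the leading laminin alpha chain, at 13.7, 22.4 and 18.0 in the same order, and LAMB1 and LAMB2 supplied the beta chains, at 24.1 and 14.6 in 92-1, 34.5 and 32.6 in MEL202, and 14.5 and 25.2 in MP41. In the IDE196 set of 92-1, LAMB1 and LAMB2 stood at 32.9 and 27.1. ITGB5 departed from the shared outline, at 10.5 in 92-1 but 43.1 in MEL202 and 40.4 in MP41, above ITGAV, LAMB1 and LAMB2 in the latter lines. Many others, ITGA5, LAMA5 and LAMC3 among them, were detected in every DMSO library at lower levels.

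Several chains best known from other cell types were close to absent. ITGA2B, the platelet alpha chain, ITGA8, ITGA10, the leukocyte alpha chains ITGAL and ITGAM, and the beta chains ITGB6 and ITGB7 did not reach the filter on low counts in any experiment, and the highest of these in any DMSO library was 0.109 CPM per kb (ITGA10 in 92-1). Others of that kind were measured: LAMB3, of epithelial laminin, and ITGB4 stood at 2.83 and 1.42 CPM per kb in MP41, and ITGAX, of myeloid cells, at 0.66 in MEL202. ITGAE, whose protein binds E-cadherin together with the ITGB7 chain, was at 4.09 CPM per kb in 92-1 (1.82 in its IDE196 set), 2.11 in MEL202 and 3.5 in MP41, while ITGB7 had 22 reads in the 48 libraries together. For ITGB7, 42.1% of the exon bases lie under another gene, where an unstranded count leaves reads unassigned, and the sum of both stranded counts was 483 reads, 21.95 times as many, so its unstranded level is no measure of its absence. For ITGAE, 7.59% of the exon bases lie under other genes. ITGB3, the beta chain that makes the vitronectin receptor with ITGAV, shares 51.6% of its exon bases with an overlapping gene model that had 0 reads in every library; whether ITGB3 lost reads there was not tested.

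Line by line, the DMSO levels differed in 26 of the 28 members tested, against 77.7% of all genes tested (edgeR quasi-likelihood F-test over 36 libraries, adjusted p under 0.05), ITGA11 and LAMA2 being the others. Of the gaps between 92-1 and another line, the widest was in ITGB3, whose DMSO level was 6.47 higher on the log2 scale in MP41 than in 92-1 (adjusted p = 4.0e-17). LAMB3, a beta chain of epithelial laminin, was 5.31 higher in MP41 than in 92-1 (1.6e-17), and ITGA3, a laminin receptor chain, 3.67 higher (2.5e-15). ITGA1, a collagen receptor chain, was 4.27 higher in MEL202 than in 92-1 (1.5e-12), and ITGB8, which with ITGAV activates latent TGF-beta, 4.32 higher (1.2e-16). Conversely ITGA9, a receptor chain for tenascin and osteopontin, stood at -2.69 in MEL202 relative to 92-1 (8.2e-13), and LAMA3 stood at -2.09 in the same contrast (3.6e-08). ITGA4 had 89 reads in the 6 DMSO libraries of MEL202 and 0 in the 6 of MP41. LAMA4 separated the lines in opposite directions from 92-1, at -0.86 in MEL202 and 2.24 in MP41 (3.6e-18).

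Each line had its own experiment, so line and experiment cannot be told apart in these DMSO levels. Line 92-1 had 2 sets of DMSO libraries, and between those sets 22 of 28 members differed, against 60.4% of all genes, with 2 higher (ITGAE and LAMA2, against 31.1%) and 20 lower (against 29.3%) in the FHT-1015 set. The median difference over the members was -0.68 on the log2 scale, beside 0.04 over all genes, and LAMB3 differed most at -2.62 (adjusted p = 6.6e-06, edgeR). Marker sums of other cell types differed the same way: the 4 epithelial genes summed to between 1.01 and 1.70 CPM in the FHT-1015 set and to between 3.65 and 13.9 in the IDE196 set, and the 4 fibroblast genes to between 2.51 and 4.05 and between 6.37 and 23.8. Their part in the members' differences was not tested. The gaps of ITGB3, ITGB8, ITGA1 and LAMB3 among lines given above were larger than the gap of the same gene between the sets of 92-1 (-1.56, -0.93, -1.11 and -2.62). For LAMA1, LAMA5, ITGAE and LAMA2 the gap between the sets (-0.81, -1.16, 1.15 and 1.73) exceeded both gaps of 92-1 to another line, the wider of which were 0.69, 0.77, -0.94 and -1.14.

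**Figure D1:**
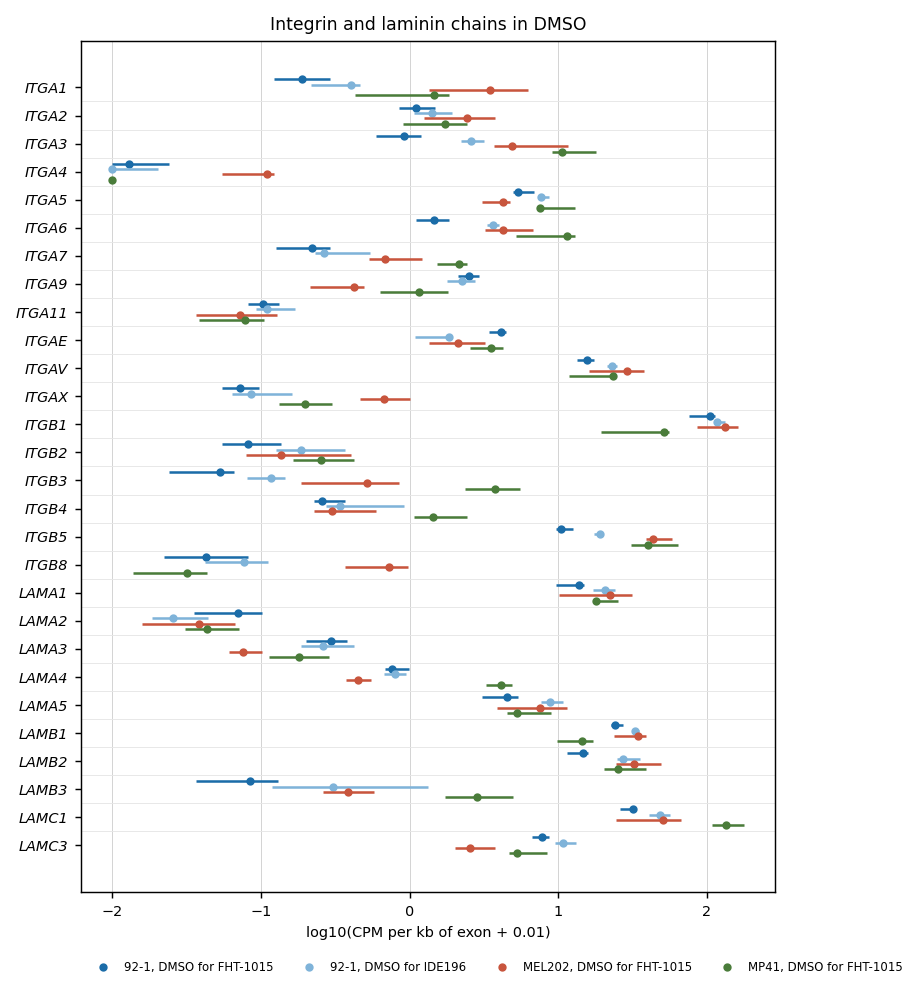
Levels of the 28 tested members in DMSO, on a log10 scale of CPM per kb of exon after adding 0.01, as the median (point) and the range (line) of 6 libraries for each of the 4 experiments. ITGB1 and LAMC1 lie at the right edge in every experiment, and ITGB3, LAMB3 and ITGB8 are the most widely spread among lines.

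With FHT-1015 for 24 h, a collagen, a vitronectin and a laminin receptor chain rose in every line. ITGA1, ITGAV and ITGA3 were higher in all 3 lines, 3 of the 23 members tested in each of them, against 5.04% of all genes so tested; 0 of the 23 members were lower in all 3 lines, against 7.65%. By line, 16 of 25 members were called in 92-1, 9 higher and 7 lower, where 60.6% of all genes were called (29.2% higher and 31.4% lower). In MEL202 9 of 28 were called, 7 higher and 2 lower, against 18.8% (8.69% and 10.1%). Of the 28, limma-voom called 19, and the fits without 1 library called 6 or 7. The share of all genes in those fits was not kept, so their counts have no such share beside them. In MP41 12 of 26 were called, 5 higher and 7 lower, against 36.1% (17.4% and 18.7%). A member was called where the Benjamini-Hochberg adjusted p of edgeR's quasi-likelihood F-test, over all genes tested, was under 0.05. In 92-1 the share of members called was thus near that of all genes. The median log2 fold change over tested members was 0.23 in 92-1, 0.26 in MEL202 and -0.05 in MP41, beside -0.00082, -0.0055 and 0.065 over all genes. The fold differed among the lines for 8 of 28 members, ITGA3, ITGA9, ITGB4, ITGB5, ITGB8, LAMA3, LAMA4 and LAMC3, against 12% of all genes. With limma-voom 15 were called, again without a share of all genes.

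ITGA1 encodes the alpha chain of a collagen receptor and lies on chromosome 5 (52787896 to 52959210, plus strand, GRCh38). In 92-1 its 3 replicates with FHT-1015 stood at 48.2, 51.7 and 56.0 CPM, and those in DMSO at 3.81, 2.10 and 2.90. In MEL202 they stood at 435, 443 and 499.6 CPM with the drug and at 42.9, 117 and 103 in DMSO. In MP41 the values were 132, 112 and 148 CPM with the drug and 26.9, 7.72 and 33.8 in DMSO. In each line every treated library lay above every DMSO library, and in MP41 the second DMSO replicate lay well below the other 2. The log2 fold change was 4.12 ± 0.20 (SE, n = 3 against 3) in 92-1, 2.39 ± 0.45 in MEL202 and 2.51 ± 0.41 in MP41, with adjusted p of 1.9e-10, 0.0021 and 0.00035 (edgeR). MEL202 began and ended highest, and 92-1, which began lowest, had the largest fold, although the test of a difference among lines gave an adjusted p of 0.0583 for ITGA1.

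ITGAV encodes the alpha chain that pairs with ITGB1, ITGB3, ITGB5, ITGB6 or ITGB8 and lies on chromosome 2 (186590065 to 186680901, plus strand). With FHT-1015 its replicates stood at 664, 612 and 715 CPM in 92-1 against 142, 110.1 and 126 in DMSO. In MEL202 they were 951, 908 and 952 CPM against 169, 297 and 276, and in MP41 479.6, 411 and 504 against 119, 96.9 and 196. No treated library overlapped a DMSO library, and the treated libraries of MEL202 lay closer together than those in DMSO. The log2 fold changes were 2.40 ± 0.15, 1.92 ± 0.31 and 1.76 ± 0.23, with adjusted p of 2.6e-09, 0.00078 and 7.3e-05 (edgeR), and a difference among the lines was not detected (adjusted p = 0.344).

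ITGA3, on chromosome 17 (50055968 to 50090481, plus strand), encodes a laminin receptor chain that pairs with ITGB1. It stood at 33.3, 39.5 and 39.0 CPM with FHT-1015 in 92-1 against 5.74, 9.87 and 9.18 in DMSO. Its log2 fold change was 2.19 ± 0.21 in 92-1 (adjusted p = 2.7e-07), 1.23 ± 0.35 in MEL202 (0.025) and 0.86 ± 0.17 in MP41 (0.0015, edgeR), and these folds differed among the lines (adjusted p = 0.0317), a difference kept in 11 of 18 fits without a library. The MEL202 call held in 1 of the 6 fits made without 1 of the libraries compared, with an adjusted p of up to 0.0922. The other laminin receptor chains, ITGA6 and ITGA7, were called in none of the lines at 24 h, with log2 fold changes between -0.32 and 0.26.

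**Figure D2:**
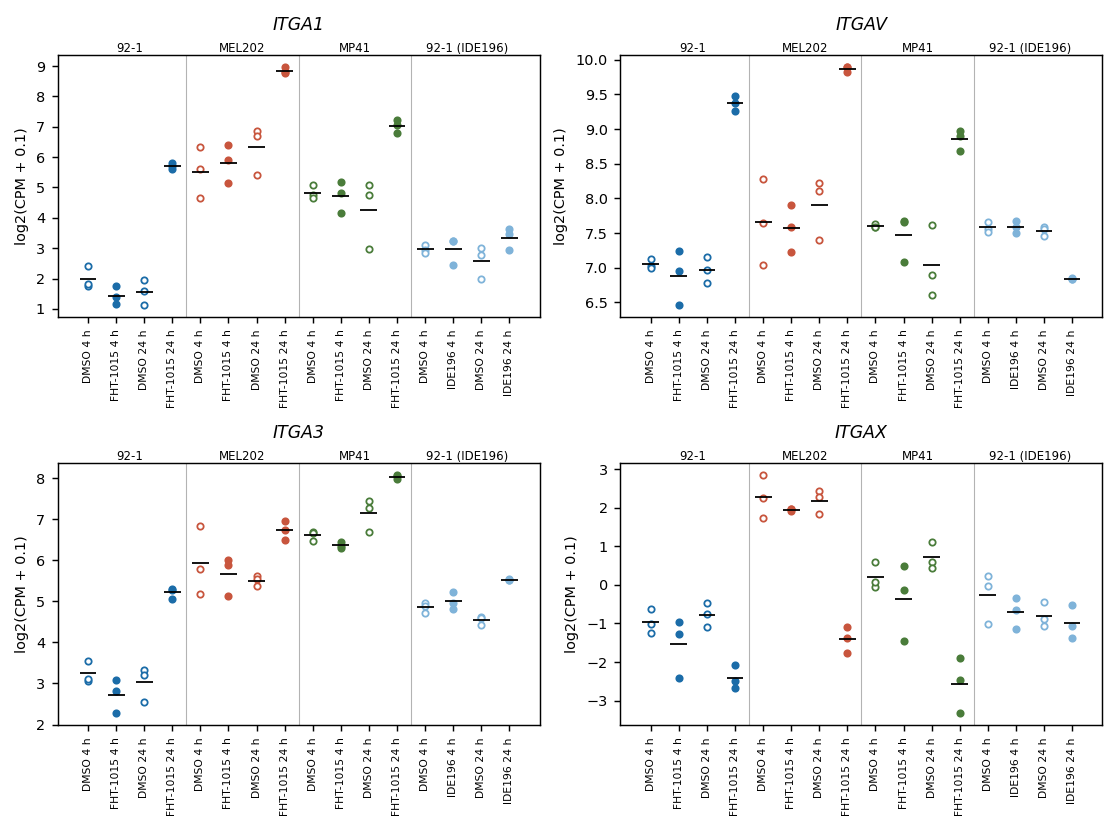
Every library's value for ITGA1, ITGAV, ITGA3 and ITGAX, as log2(CPM + 0.1), by experiment and group; open circles are DMSO, filled circles are drug, and the bar is the mean of the log2 values. The 24 h FHT-1015 libraries stand above their DMSO libraries for the first 3 genes in each line and below them for ITGAX, and at 24 h the IDE196 libraries of ITGAV lie below theirs. In 92-1 ITGAX was near the floor at 24 h, at 0.058 to 0.136 CPM with FHT-1015 and 0.367 to 0.617 in DMSO, without a call.

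Other collagen receptor chains did not follow ITGA1 together. ITGA2 rose in MP41, to 35.4, 33.2 and 34.3 CPM from 13.3, 7.03 and 19.1 (1.38 ± 0.31, adjusted p = 0.0036, edgeR), and its log2 fold changes of 0.51 in 92-1 and 0.77 in MEL202 did not pass the test. A difference of ITGA2 among the lines was not detected (adjusted p = 0.467). ITGA11 fell in 92-1 and in MP41 at very low levels: 5 reads in the 3 treated libraries against 59 in DMSO in 92-1, a 9.68-fold lower rate (95% interval 3.92 to 30.9, counting error only), and 5 against 35 in MP41, 7.49-fold lower (2.92 to 24.5). In MEL202 its log2 fold change was -2.31 ± 0.92 and not called.

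Chains bound by VCAM1, fibronectin and osteopontin moved apart. ITGA4, the alpha chain best known from leukocytes, rose in MEL202, from 0.468, 0.818 and 0.799 CPM in DMSO to 5.44, 3.45 and 3.68 (2.59 ± 0.42, adjusted p = 0.00089, edgeR). In 92-1 ITGA4 had 2 reads in the 3 DMSO libraries and 62 in the treated ones, a ratio of 37.8 with a counting interval of 10.03 to 319, and the gene was called (adjusted p = 0.00028). ITGA4 reached the filter on low counts in 92-1 only through the 3 treated 24 h libraries in which it was high, so that call describes a gene admitted by the same libraries. The sum of the 6 leukocyte markers was between 0.136 and 0.407 CPM in the treated 92-1 libraries and between 0.185 and 0.308 in DMSO. Those sums rest on few reads, with 3 of the 6 genes at 0 reads in the treated group and 1 in DMSO. A part of other cells in the ITGA4 change was not tested. ITGA4 did not reach the filter in MP41. ITGA9 went the other way in 92-1, where treated libraries stood at 1.501, 2.14 and 1.28 CPM and DMSO libraries at 24.1, 17.4 and 19.8 (-3.66 ± 0.25, adjusted p = 5.9e-09). In MP41 ITGA9 was called higher, at 17.7, 19.6 and 20.7 CPM against 10.3, 15.0 and 11.2 (0.67 ± 0.24, 0.0472), a call that 5 of 6 fits without a library and 3 alternatives lost, and in MEL202 its change was -0.02 ± 0.33. The fold of ITGA9 differed among the lines (adjusted p = 1.2e-08), the smallest p of any member. Part of the ITGA9 exons (6.46%) lies under another gene, the antisense ITGA9-AS1, and the sum of both stranded counts was 1.22 times the unstranded count.

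ITGA5, the fibronectin receptor chain, fell in MP41 at 24 h, from 74.2, 97.4 and 57.2 CPM to 47.7, 50.3 and 48.8 (-0.64 ± 0.18, adjusted p = 0.0154), and was not called in 92-1 (-0.19) or MEL202 (0.18). The MP41 call was lost when only the 6 libraries compared were fitted (adjusted p = 0.0614). ITGAE fell in 92-1 (-0.42 ± 0.12, 0.0065; 0.175 with all 48 libraries in 1 fit), with estimates of -0.49 and -0.29 that were not called in MEL202 and MP41. ITGAX, an alpha chain of myeloid cells, fell in MEL202 from 5.34, 3.45 and 4.73 CPM to 0.194, 0.365 and 0.287 (-3.96 ± 0.40, adjusted p = 2.4e-05, edgeR). In MP41 the ITGAX reads were 6 in the treated libraries against 93 in DMSO, 16.6-fold lower (7.34 to 46.4). The 6 leukocyte markers summed to between 1.46 and 2.58 CPM in treated MEL202 and to between 2.10 and 2.18 in DMSO. Only LYZ of them had a median above 1 CPM in MEL202, and 3 had 0 reads in the treated 24 h group and 2 in DMSO. A part of other cells in the ITGAX change was not tested. ITGB2, the known beta partner of ITGAX, was called in none of the 3 lines, with log2 fold changes of 0.47, 1.18 and 0.60.

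Among beta chains, ITGB8 rose in 92-1 from 0.184, 0.617 and 0.431 CPM in DMSO to 5.39, 5.71 and 6.34 (3.86 ± 0.43, adjusted p = 1.6e-06, edgeR). Only 2 libraries outside the treated 24 h group reached the filter for ITGB8, which therefore entered the test through that group. In MEL202, where ITGB8 started at 7.88, 11.2 and 10.4 CPM, its fold was 0.76 ± 0.31 and not called, and the lines differed (adjusted p = 0.000125). ITGB3 fell in MP41, from 19.9, 24.4 and 22.4 CPM to 4.72, 4.33 and 4.42 (-2.31 ± 0.21, 2.7e-06), with all treated values below the lowest DMSO value. In MEL202 ITGB3 stood at -0.86 ± 0.53 and was not called, and the test among lines gave 0.0943. ITGB1, the common partner, changed little: it was called in 92-1 (0.54 ± 0.16, 0.0090), a call lost without the second DMSO replicate (0.0577), and stood at 0.39 and 0.50 without a call in MEL202 and MP41. In MP41, therefore, ITGAV rose while ITGB3 fell. The fold of ITGB5 was -0.28 ± 0.10 in 92-1 and 0.76 ± 0.20 in MEL202, called lower and higher, and -0.14 in MP41 (difference among lines, adjusted p = 0.00146). ITGB4, which pairs with ITGA6 to bind laminin, was called higher in 92-1 (0.76 ± 0.29) and in MEL202, at 3.93, 5.73 and 4.82 CPM against 2.03, 1.46 and 1.91 in DMSO (1.42 ± 0.38, adjusted p = 0.0174). Its fold differed among the lines (0.0425), kept in 8 of 18 fits without a library and in 5 of 8 alternatives, and the calls of ITGB4 were lost in 3 of 6 fits without a library in 92-1 and in 4 of 6 in MEL202, and those of ITGB5 in 2 and 3 of 6. With all 48 libraries in 1 fit the 92-1 calls of both were lost. The 92-1 call of ITGB4, kept in 5 of 9 alternatives, was lost also with limma-voom, no filter and only the libraries compared. That of ITGB5 was lost also with library size alone.

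Laminin alpha chains fell or did not pass the test, and the beta chains LAMB1 and LAMB2 rose in 92-1. LAMA3, an alpha chain of epithelial basement membranes, fell in 92-1 from 4.50, 4.19 and 4.25 CPM to 0.750, 1.19 and 0.640 (-2.35 ± 0.30, adjusted p = 5.5e-06, edgeR), while its folds in MEL202 (0.37) and MP41 (-0.20) were not called. LAMA4, the alpha chain of vessel and mesenchymal basement membranes, fell in 92-1 (-1.56 ± 0.21, 9.5e-06) and in MEL202, from 4.37, 6.02 and 4.21 CPM to 1.84, 0.975 and 0.907 (-1.96 ± 0.34, 0.0012). In MP41, which held the most LAMA4, it stood at -0.11 ± 0.13 and the groups overlapped. Differences among lines were called for LAMA3 (0.000939) and LAMA4 (0.000234). LAMA5 fell in MP41 (-0.76 ± 0.22, 0.0147), with groups that overlapped and a call kept in 3 of 6 fits without a library. LAMA1 was called in none of the lines (0.23, -0.26 and 0.02), nor was LAMA2 at its low level (-1.22, -0.52 and -1.65).

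LAMB1 rose in 92-1 (0.59 ± 0.09, adjusted p = 3.3e-05, edgeR), from 197 ± 10.2 to 297 ± 11.8 CPM (mean ± SD, n = 3), and its estimates of 0.31 and 0.43 elsewhere were not called. LAMB2 rose in 92-1 (0.90 ± 0.14, 4.6e-05) and was called in MEL202 at the edge of the threshold (0.79 ± 0.26, 0.0495), a call that each of the 6 fits without a library lost. LAMB3 fell in MP41, from 15.96, 23.3 and 14.1 CPM to 5.44, 8.96 and 7.32 (-1.29 ± 0.28, 0.0032). LAMC3, a gamma chain of narrow distribution, fell in 92-1 (-1.66 ± 0.13, 4.0e-08) and in MP41, from 50.03, 63.4 and 39.1 CPM to 26.8, 22.2 and 18.5 (-1.18 ± 0.19, 0.00029). In MEL202 LAMC3 stood at -0.35 ± 0.27, and the lines differed (0.0102). LAMC1, the abundant gamma chain, was called in none (0.18, 0.37 and 0.43). Among the 4 laminin chains with the highest DMSO levels, LAMA1 and LAMC1 were thus called in none of the lines, LAMB1 in 92-1, and LAMB2 in 92-1 and MEL202.

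**Figure D3:**
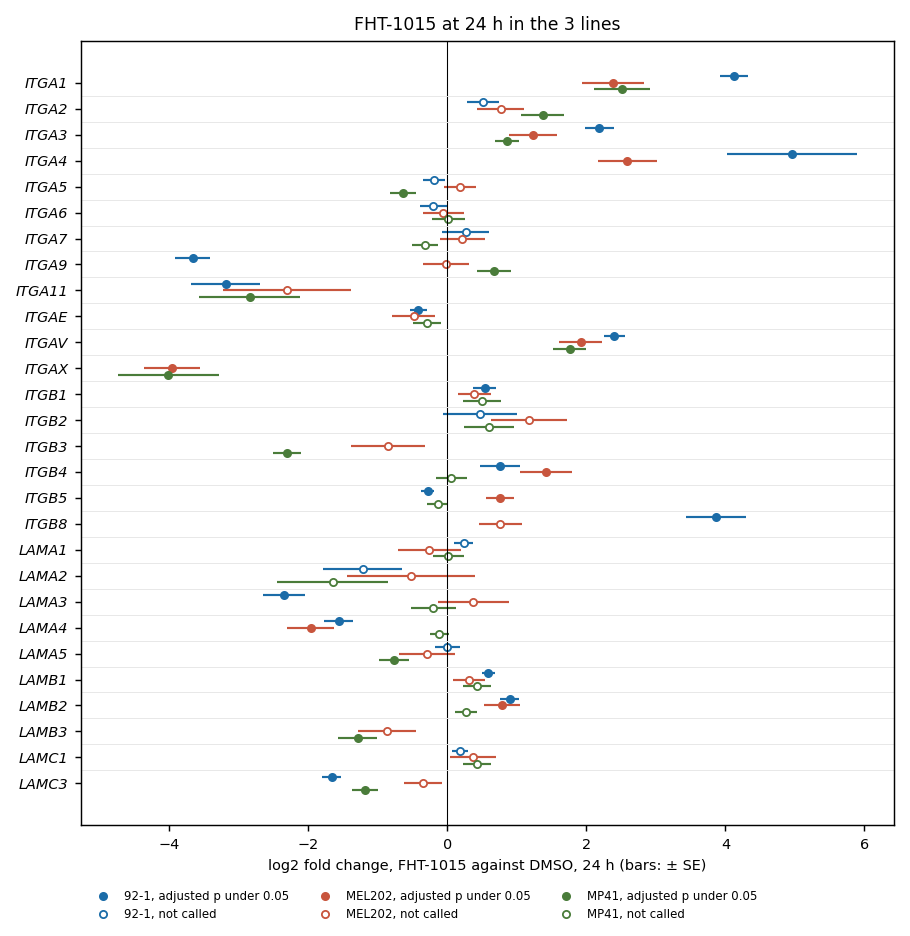
Log2 fold change of each tested member with FHT-1015 against DMSO at 24 h, with its SE as a line, in 92-1, MEL202 and MP41; filled circles passed an adjusted p of 0.05. ITGA1, ITGA3 and ITGAV are filled to the right in the 3 lines, and ITGA9, ITGB8 and LAMA3 stand apart in 92-1.

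At 4 h the picture in 92-1 was different, and 0 members were called in the other lines. In 92-1, 6 of 25 members were called, 1 higher and 5 lower, against 29.5% of all genes (12.9% higher and 16.7% lower). Without the filter on low counts, and with limma-voom, 11 were called, and the share of all genes in those fits was not kept. Fibronectin and laminin receptor chains were among those lower. ITGA5 stood at 21.2, 15.0 and 18.4 CPM with FHT-1015 against 50.7, 37.3 and 42.8 in DMSO (-1.26 ± 0.16, adjusted p = 1.8e-05, edgeR). ITGA6 stood at 5.26, 3.45 and 3.33 CPM against 9.89, 9.59 and 9.44 (-1.25 ± 0.20, 0.00025). ITGA7, the laminin receptor chain known from muscle, stood at 0.459, 0.575 and 0.440 CPM against 1.397, 1.80 and 1.27 (-1.58 ± 0.35, 0.0032). All treated libraries were below all DMSO libraries for these 3 genes. ITGA9 was already lower, at 14.5, 11.3 and 7.61 CPM against 21.5, 21.6 and 18.7 (-0.88 ± 0.19, 0.0027). LAMA5, the broadly expressed laminin alpha chain, stood at 28.8, 37.9 and 42.1 CPM against 43.8, 62.8 and 74.9 (-0.74 ± 0.18, 0.0057), a call lost when both stranded counts were summed and with all 48 libraries in 1 fit. The exons of LAMA5 overlap other genes, and that sum was 1.53 times the unstranded count. LAMA4 was the member called higher, at 19.98, 15.4 and 13.7 CPM against 10.5, 9.01 and 8.47 (0.82 ± 0.18, 0.0027).

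In MEL202 at 4 h, 0 of 28 members were called by edgeR's test, against 0.679% of all genes, and 3 had an unadjusted p under 0.05; DESeq2 and limma-voom gave 0 as well, as did the fit without the library that stood apart, and all 48 libraries in 1 fit gave 1. In MP41, 0 of 26 were called, against 0.225%, and 2 had an unadjusted p under 0.05, ITGA5 (-0.55) and ITGB3 (-0.57), with 0 called by DESeq2, and 1 by limma-voom and by the fit of only the libraries compared. A difference of the 4 h fold among the lines was called for 0 of 28 members, against 1.38% of all genes, with 4 at an unadjusted p under 0.05, 1 called by DESeq2, 5 by limma-voom and 0 or 1 in fits without a library (1 without the one that stood apart). The closest was ITGA6, whose fold was 1.4 higher in MEL202 and 1.46 higher in MP41 than in 92-1 (adjusted p = 0.0521, edgeR).

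The 24 h fold differed from the 4 h fold for 17 of 25 members in 92-1 (12 upward and 5 downward, against 45.5% of all genes, 21.1% upward and 24.3% downward), 5 of 28 in MEL202 (against 6.89%) and 6 of 26 in MP41 (against 18.6%). The MEL202 count was 3 to 6 without 1 library, 5 without the one that stood apart, 8 with DESeq2 and 11 with all 48 libraries in 1 fit, and the MP41 count was 14 with limma-voom. ITGA1 and ITGAV were among them in each line, but the MEL202 call of ITGA1 was kept in only 2 of 12 fits without a library (adjusted p up to 0.118) and was lost with library size alone and with the strand sum. In 92-1 ITGA1 stood at -0.55 and ITGAV at -0.13 at 4 h, neither called, and their later folds were 4.67 ± 0.30 and 2.53 ± 0.21 higher (adjusted p = 2.3e-08 and 1.9e-07, edgeR). ITGA5, ITGA6 and ITGA7, lower at 4 h, were not called at 24 h (-0.19, -0.20 and 0.26), and the difference between the times was called for each (1.07, 1.05 and 1.85). LAMA4 changed direction, higher at 4 h and lower at 24 h, by -2.38 ± 0.27 between the times (5.4e-06). ITGA9 was lower at 4 h and lower still at 24 h (difference -2.79 ± 0.32, 4.9e-06).

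**Figure D4:**
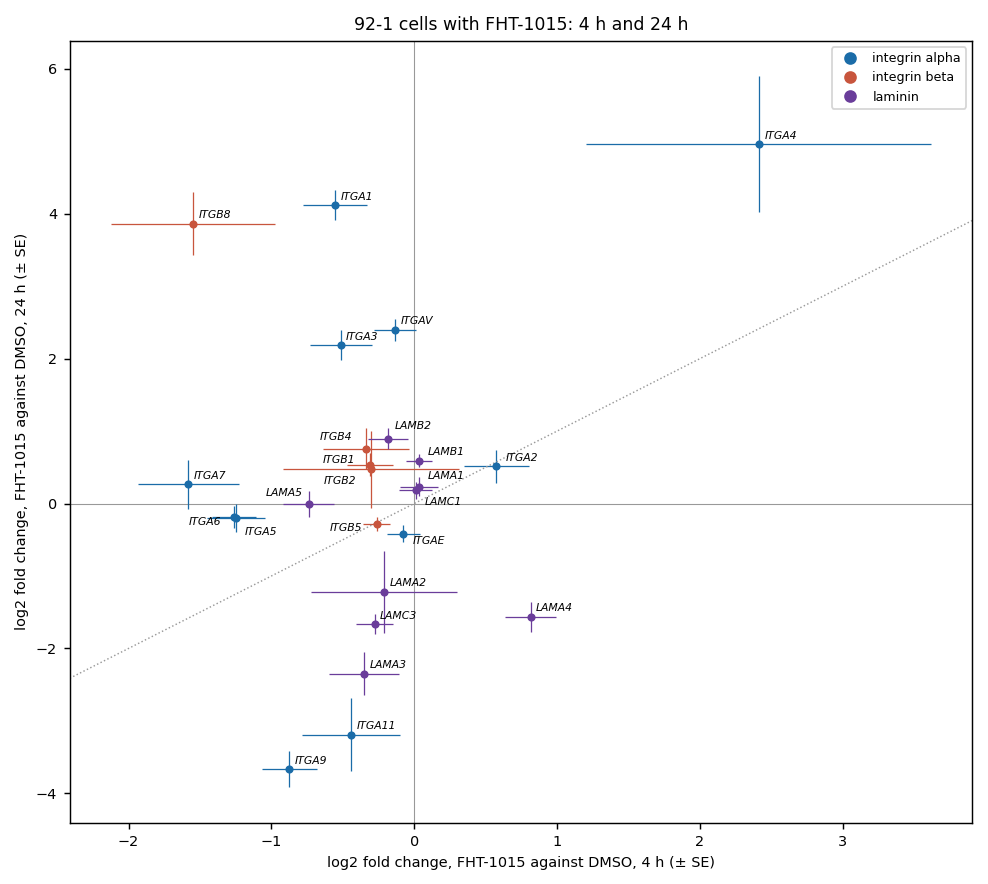
Log2 fold change of members with FHT-1015 in 92-1 at 4 h (x axis) and 24 h (y axis), with SE as lines; the dotted line marks equal folds. LAMA4 lies lower right with a positive early and a negative late value, ITGA5, ITGA6 and ITGA7 lie left of the centre near 0 on the y axis, and ITGA1, ITGAV and ITGA3 lie high, at x values between -0.55 and -0.13.

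With IDE196 for 24 h in 92-1, LAMA4, LAMB2, ITGA2 and ITGB8 rose, and LAMA1 and ITGAV fell. At that time, 19 of 27 members were called, 10 higher and 9 lower, against 58.1% of all genes (28.7% higher and 29.4% lower). At 4 h, 1 of 27 was called, higher, against 16.2% (6.89% higher and 9.3% lower): ITGB8, at 4.17, 2.46 and 3.46 CPM against 1.54, 1.48 and 1.51 in DMSO (1.16 ± 0.27, adjusted p = 0.0056, edgeR). A further member, ITGA6, had an unadjusted p under 0.05 at 4 h, and DESeq2 and the sum of both stranded counts each called 2 members. Between the times the IDE196 fold differed for 14 of 27 members, 9 upward and 5 downward, against 30.7% (13.5% upward and 17.2% downward), and for 7 with all 48 libraries in 1 fit.

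LAMA4 rose most among the well expressed laminin chains at 24 h, from 9.32, 8.27 and 7.70 CPM in DMSO to 61.5, 56.3 and 83.2 with IDE196 (2.99 ± 0.14, adjusted p = 3.5e-11, edgeR). LAMB2 rose from 204, 180.3 and 169.7 CPM to 568, 572 and 649 (1.69 ± 0.12, 3.4e-09). LAMA1 fell, from 325, 331 and 270.5 CPM to 74.7, 118 and 112 (-1.61 ± 0.14, 4.5e-08). The treated and DMSO libraries did not overlap for any of these chains. LAMA5 (0.96 ± 0.13) and LAMB1 (0.91 ± 0.09) also rose, and LAMA2, the alpha chain of muscle and nerve, rose at a low level, with 83 reads in the treated libraries against 10 in DMSO, a ratio of 8.87 (4.59 to 19.2). LAMA2 was likewise tested in this experiment only through the treated 24 h group, since 1 other library reached the filter. LAMC1 was not called (0.07 ± 0.11) and LAMC3 was called slightly lower (-0.30 ± 0.12, 0.0365), a call lost in 3 of 6 fits without a library. Laminin alpha chains thus moved in opposite directions: LAMA1 went from 309 ± 33.5 to 102 ± 23.4 CPM (mean ± SD, n = 3), and LAMA5 from 133 ± 14.3 to 259 ± 41.1.

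On the receptor side, ITGA2 and ITGA3 rose with IDE196, and ITGAV fell with several of its beta partners. ITGA2 went from 11.4, 10.1 and 8.33 CPM to 34.9, 43.7 and 54.8 (2.16 ± 0.17, adjusted p = 9.0e-09, edgeR), and ITGB8 from 0.483, 0.520 and 0.553 to 2.75, 4.87 and 3.67 (2.84 ± 0.31, 4.4e-07). ITGA3 rose by a smaller factor (0.98 ± 0.11, 7.1e-07). ITGA1 (0.73 ± 0.25) and ITGB4 (0.88 ± 0.34) were called higher, with overlapping groups for ITGA1, and lost their calls in 2 and 4 of 6 fits without a library. ITGA9 fell from 19.2, 18.0 and 16.2 CPM to 7.96, 7.498 and 6.32 (-1.29 ± 0.15, 1.4e-06). ITGAV fell from 186 ± 8.46 to 115 ± 0.60 CPM (-0.70 ± 0.08, 7.8e-07), with ITGB1 (-0.48 ± 0.09) and ITGB5 (-0.43 ± 0.09). ITGB3 fell at its low level, with 4 reads against 30, 7.02-fold lower (2.47 to 27.4). ITGAE (-0.78 ± 0.20) and ITGA11 (-1.09 ± 0.40) were lower as well, the latter lost in 3 of 6 fits. With all 48 libraries in 1 fit, the 24 h calls of ITGA1, ITGA11, ITGB1 and LAMC3 were lost (ITGB1 at an adjusted p of 0.124). ITGA5, ITGA6, ITGA7, ITGAX, ITGB2, LAMA3 and LAMB3 were not called at 24 h.

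Set against each other in 92-1, each against its own DMSO, the drugs differed at 24 h for 15 of 28 members, 5 with the higher fold under FHT-1015 and 10 with the lower, against 33% of all genes (15.9% and 17.1%). ITGAV moved in opposite directions, and its fold was 3.09 ± 0.17 higher with FHT-1015 (adjusted p = 9.6e-14, edgeR). ITGB1 did so by a smaller amount (1.01 ± 0.19, 0.000136). LAMA4 was the reverse, lower with FHT-1015 and higher with IDE196 (-4.55 ± 0.25, 8.4e-14). LAMA1, which fell with IDE196, was not called with FHT-1015, and the difference was 1.84 ± 0.21 (7.2e-08). ITGA1 rose more with FHT-1015 (3.38 ± 0.34, 9.2e-09) and ITGA2 more with IDE196 (-1.65 ± 0.30, 7.9e-05). ITGB8 rose with each drug and LAMB2 too, with a difference of 1.02 ± 0.56 that was not called for ITGB8 (0.175) and of -0.79 ± 0.19 for LAMB2 (0.0020). ITGA9 fell with each, and further with FHT-1015 (-2.38 ± 0.31, 5.7e-07). At 4 h the drugs differed for 8 of 28 members, against 24.6%, 1 with the higher and 7 with the lower fold under FHT-1015 (against 10.7% and 14%; 4 in all with the 48 libraries in 1 fit), ITGA5 at -1.13 ± 0.18 (3.3e-05) and ITGB8 at -2.71 ± 0.61 (0.0014) among them. The FHT-1015 side of ITGB8 lay near the floor, at 0.083 to 0.309 CPM with the drug and 0.265 to 1.09 in DMSO. Those 2 groups overlapped, and the change was not called. The DMSO sets are separate, so these contrasts compare folds and not levels. Each drug had its own experiment, so drug and experiment cannot be told apart in the differences between folds.

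**Figure D5:**
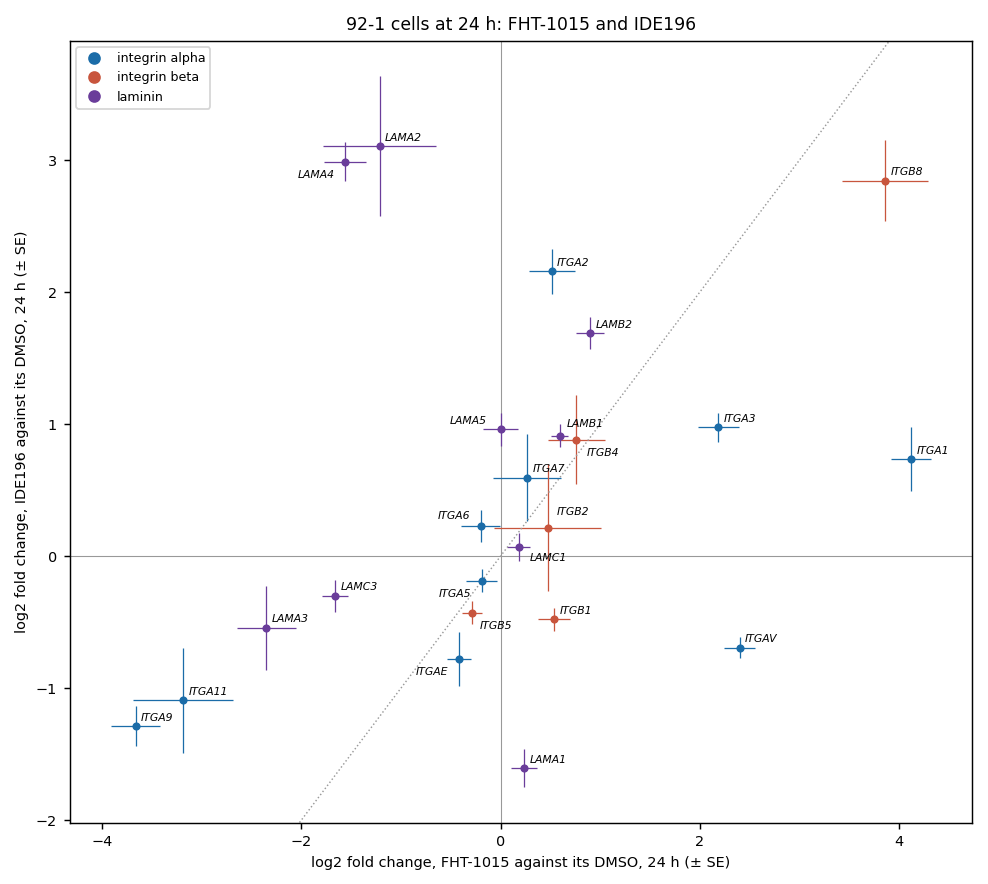
Log2 fold change of members in 92-1 at 24 h with FHT-1015 (x axis) and with IDE196 (y axis), each against its own DMSO, with SE as lines; the dotted line marks equal folds. LAMA4 and LAMA2 lie upper left, ITGAV lies lower right, and ITGB8, ITGA1 and ITGA3 lie upper right with ITGA9 and ITGA11 lower left.

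Transcripts of adhesion partners of integrins were read from a list of 20 genes. It holds SRC, PTK2, BCAR1 and CD151 beside genes of proteins that link integrins to actin. With FHT-1015 in 92-1, 14 of 20 were lower and 0 higher at 4 h, against 16.7% and 12.9% of all genes, with a median log2 fold change of -0.40 beside 0.0071 over all genes. At 24 h, 3 were higher and 10 lower, against 29.2% and 31.4%. In MEL202 0 were called at 4 h (against 0.679%), and 1 was higher and 3 lower at 24 h (against 8.69% and 10.1%). In MP41, where 18 were tested, 0 were called at 4 h (against 0.225%), and 0 were higher and 5 lower at 24 h (against 17.4% and 18.7%). TNS3, a tensin that binds beta chain tails, fell at 24 h in 92-1 (-3.04 ± 0.12, adjusted p = 2.3e-11, edgeR) and in MP41 (-2.01 ± 0.22, 1.6e-05), and FLNA, the actin crosslinker filamin, fell in 92-1 (-1.52 ± 0.09). ACTN1, an alpha-actinin, fell in MP41 (-1.14 ± 0.16), and PARVB, a parvin of the kinase-like ILK complex, and FERMT1, a kindlin that activates integrins, fell in MEL202 (-1.14 ± 0.21 and -1.14 ± 0.27). FERMT2, another kindlin, rose in 92-1 (0.73 ± 0.09) and in MEL202 (1.22 ± 0.31), as did ZYX, the focal adhesion protein zyxin, in 92-1 (1.07 ± 0.11). With IDE196, 0 of 18 were higher and 4 lower at 4 h, against 6.89% and 9.3%. At 24 h, 6 of 18 were higher and 5 lower, against 28.7% and 29.4%, TNS1 (1.14 ± 0.19) and TNS3 (0.99 ± 0.10) among the higher and FERMT1 (-2.49 ± 0.15) and PARVB (-1.07 ± 0.08) among the lower.

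Other matrix ligands and basement membrane partners of laminins made up a list of 13. With FHT-1015 at 24 h, 2 of 7 tested were higher and 3 lower in 92-1, against 29.2% and 31.4% of all genes. Of these 7, FBN1 reached the filter only through the 24 h DMSO group, with 0 other libraries past it. In MEL202 0 of 10 were called, against 18.8%, and in MP41 2 of 10 were higher and 4 lower, against 17.4% and 18.7%. AGRN, the heparan sulfate proteoglycan agrin that binds laminins, fell in 92-1 (-1.30 ± 0.16, adjusted p = 5.0e-06, edgeR) and in MP41 (-1.58 ± 0.17, 1.4e-05), and HSPG2 (perlecan) fell in 92-1 (-0.86 ± 0.16). SPP1, osteopontin, a ligand of ITGAV, ITGA4 and ITGA9 receptors, rose in 92-1 from 0.682 ± 0.317 to 42.5 ± 36.6 CPM (5.98 ± 0.68, 1.6e-06), with treated replicates that varied widely; it reached the filter only through that treated group. BCAM, a laminin receptor of the immunoglobulin family, rose in 92-1 by 0.53 ± 0.19. In MP41 the fibrillin FBN1 fell (-2.74 ± 0.38) and THBS1, thrombospondin, rose (1.75 ± 0.29) with VTN, vitronectin (0.84 ± 0.25). At 4 h in 92-1, 3 of 7 were lower and 0 higher, against 16.7% and 12.9%, and in MEL202 and MP41 0 of 10 were called, against 0.679% and 0.225%. With IDE196, 2 of 9 were higher and 0 lower at 4 h, against 6.89% and 9.3%. At 24 h, 5 of 9 were higher and 0 lower, against 28.7% and 29.4%, with a median log2 fold change of 0.97 beside 0.03 over all genes. FN1, fibronectin, rose most among the well expressed (1.97 ± 0.12, 5.4e-10), followed by HSPG2 (1.30 ± 0.12).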

How the data were processed

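Human RNA was sequenced in 48 libraries. The deposited values are raw read counts per gene, whole numbers laid out as STAR writes them, per the file headers. The build hg38 and limma are named in the submitters' processing notes; aligner version, annotation and strand setting are not given in the sources used here. The first strand held 49.7% to 50.1% of stranded reads, so the unstranded column was used. Reads outside the gene rows (17.1% to 22.7%) and 92 spike-in rows with 0 reads were left out. Symbols and positions came from GENCODE 29, which holds 58552 of the 58870 identifiers, 47456 of them at the same version.

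The 12 libraries of an experiment formed 1 fit in edgeR 4.0.16 (R 4.3.3; TMM, filterByExpr defaults, 4 groups, quasi-likelihood F-test). Differences among lines used the 36 FHT-1015 libraries, and differences between drugs or DMSO sets the 24 libraries of 92-1. Members were read from fits over all genes, with Benjamini-Hochberg adjustment over all genes tested and a call at an adjusted p under 0.05. SE was obtained as the log2 fold change over the square root of F. Replicate values are TMM-normalised CPM; for ratios of few reads the exact 95% interval and the floor of 3 reads cover counting error only, because reads are not independent molecules. The scripts were tested on simulated counts.

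Groups came from the labels. The members and lists were chosen with earlier results of these data known. All members are named; values per sample are given for up to 6 called members per drug comparison, by absolute fold, whose mean reached 1 CPM, and up to 2 called genes per partner list and direction at 24 h. The values of further members in single libraries were added after they were seen. Alternatives were no filter, scaling by library size alone or by relative log expression, DESeq2 1.42.0, the sum of both stranded columns, only the libraries compared, all 48 in 1 fit, a replicate block, leaving out each library and, added after seeing the data, limma-voom 3.58.1 with quality weights. No replicates were duplicates: the lowest chi-square per degree of freedom over 48 replicate pairs was 4.18.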

Additional observations from a re-analysis of the deposited data

Results flagged for a closer look

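These results are listed because an effect differed, by its own test in edgeR, between times or lines (adjusted p under 0.05 over all genes). The calls between times kept in fewer than 6 of 12 fits without a library were those of ITGB4 in 92-1 with FHT-1015 (4), ITGA1 and ITGA4 in MEL202 (2 each) and LAMA2 with IDE196 (2); ITGA4 also lost its call in 4 of 8 alternatives and LAMA2 in 3 of 7. That of LAMA5 in 92-1 with FHT-1015 was kept in 7 of 12 such fits, and its value fell to 0.094 (adjusted p = 0.77) with the sum of both stranded counts. With all 48 libraries in 1 fit, the calls between times of ITGB4, LAMA5 and LAMB1 in 92-1 with FHT-1015, of ITGA4 in MEL202, and of ITGA3, ITGA6, ITGAV, ITGB1, ITGB5, LAMA2 and LAMA5 with IDE196 were lost. The call among lines was kept in 11 of 18 such fits for ITGA3 and 8 of 18 for ITGB4. Groups of 3 replicates were not searched for outlying values of single members. All time values are the log2 fold change at 24 h minus that at 4 h.

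With FHT-1015 in 92-1, integrin alpha chains stood higher at the later time by 4.67 for ITGA1, 2.70 for ITGA3, 1.07 for ITGA5, 1.05 for ITGA6, 1.85 for ITGA7 and 2.53 for ITGAV, and the difference was -2.79 for ITGA9 and -2.75 for ITGA11. Beta chains differed by 0.85 for ITGB1, 1.09 for ITGB4 and 5.41 for ITGB8. ITGB8 entered that test through the treated 24 h group, where it was high. At 4 h ITGB8 stood at 0.083 to 0.309 CPM with the drug and 0.265 to 1.09 in DMSO, in overlapping groups without a call. Laminin chains differed by -2.00 for LAMA3, -2.38 for LAMA4, 0.74 for LAMA5, 0.56 for LAMB1, 1.08 for LAMB2 and -1.38 for LAMC3. In MEL202 the differences were 2.16 for ITGA1, 2.31 for ITGA4, 2.06 for ITGAV, -3.56 for ITGAX and -2.35 for LAMA4. In MP41 they were 2.56 for ITGA1, 1.10 for ITGA3, 1.87 for ITGAV, -3.53 for ITGAX, -1.74 for ITGB3 and -1.20 for LAMC3.

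With IDE196 in 92-1, the difference between times was 2.26 for ITGA2, 0.83 for ITGA3, 0.58 for ITGA6, -1.18 for ITGA9, -0.70 for ITGAV, -0.56 for ITGB1, -0.39 for ITGB5 and 1.68 for ITGB8. For laminins it was -1.59 for LAMA1, 2.32 for LAMA2, 3.00 for LAMA4, 0.75 for LAMA5, 0.87 for LAMB1 and 1.51 for LAMB2. LAMA2 entered that test through the treated 24 h group, where it was high.

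The FHT-1015 effect at 24 h differed among the 3 lines for ITGA3 (adjusted p = 0.0317), ITGA9 (1.2e-08), ITGB4 (0.0425), ITGB5 (0.00146), ITGB8 (0.000125), LAMA3 (0.000939), LAMA4 (0.000234) and LAMC3 (0.0102).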

How the results depend on the processing

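Of 184 called results for single members, 138 kept their call under every alternative and every fit without a library, and 0 changed direction. Over the alternatives 1391 of 1454 values kept their call and 63 lost it, and over the fits without a library 1888 of 2034 kept it and 146 lost it. Counts of called members moved by over 1.5 times in these cases. For FHT-1015 at 4 h in 92-1 (6 called), no filter, a replicate block and limma-voom each gave 11. In MEL202, all 48 libraries in 1 fit gave 1 at 4 h and 11 for the difference between times (5 called), DESeq2 gave 8 for the latter, and limma-voom gave 19 at 24 h (9 called). In MP41 at 4 h (0 called), only the samples compared and limma-voom each gave 1, and limma-voom gave 14 for the difference between times (6 called). For IDE196 at 4 h (1 called), DESeq2 and the strand sum gave 2, and for its difference between times (14 called) all 48 libraries in 1 fit gave 7. For the lines at 4 h (0 called), DESeq2, all 48 libraries, no filter, relative log expression, the replicate block and the strand sum each gave 1 and limma-voom 5; at 24 h (8 called) limma-voom gave 15. For the drugs at 4 h (8 called) all 48 libraries gave 4. The cause of these moves was not tested. The share of all genes called was not kept for the alternatives, so these counts cannot be set against the shares given above. Without 1 library the counts ranged from 6 to 8 in 92-1 at 4 h, 14 to 17 at 24 h and 15 to 18 between times; 0 to 0, 6 to 7 and 3 to 6 in MEL202; 0 to 0, 10 to 14 and 5 to 8 in MP41; and 1 to 2, 16 to 18 and 12 to 14 with IDE196. They ranged from 0 to 1 (4 h), 6 to 10 (24 h) and 26 to 28 (DMSO level) among lines, 6 to 8 and 13 to 16 between drugs, and 20 to 22 between DMSO sets. The low counts between times in MEL202 (3) came from leaving out any of the 3 DMSO or any of the 3 FHT-1015 replicates at 24 h, replicate 2 of DMSO at 4 h or replicate 1 of FHT-1015 at 4 h; the higher counts with IDE196 at 4 h (2) came without DMSO replicate 4 or 5 or IDE196 replicate 2. Library size alone shifted the median of all genes by at most 0.093, between the DMSO sets.

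The labels give no shared source for the replicate numbers of the FHT-1015 experiments, and they did not meet the criterion for pairing (every correlation above 0.1): deviations of same-numbered libraries passed it in 7 of 18 pairs (-0.32 to 0.51). As a hint from the data only, 12 of 18 correlated best with their own number, among them all 6 in MP41. With the replicate block the counts were 17 in 92-1 at 24 h and 17 between times, 0, 9 and 4 in MEL202, 0, 12 and 7 in MP41, and 8 at 24 h and 23 in DMSO among lines. The IDE196 arms share no replicate numbers. With 3 libraries a group, few reads stood behind the changes of ITGA4 and ITGB3 in 92-1, ITGA11, ITGAX in MP41 and LAMA2 with IDE196. They are known at best to within the counting intervals given, which leave out the spread between libraries.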
